A study of Mus musculus with 20 samples.

Results

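The suppressor of cytokine signaling (SOCS) family comprises 8 genes, Cish and Socs1 to Socs7, and their mRNA was followed in mouse regulatory T cells (Tregs) and CD8+ T cells given IL-2 or IL-2-REH, a partial agonist. The members were chosen by gene symbol from a table of 23992 symbols, and all 8 were found. Tregs came from B6-Foxp3EGFP mice, in which GFP reports Foxp3, by CD4+ T cell selection and sorting for GFP. CD8+ T cells came from C57BL/6J mice by kit isolation without a sort, so cell type cannot be told apart from mouse line and isolation. The strain field of the labels reads C57BL/6N for every library. Both cell types were taken from spleen and lymph node. They were left unstimulated or kept with 200 nM of either cytokine, for 90 min (1.5 hr in the labels) or 4 hr. The labels give the unstimulated libraries as 0 hr, and no cytokine-free library is labelled 90 min or 4 hr. Time in culture therefore cannot be told apart from cytokine in comparisons with unstimulated cells. IL-2-REH is a human IL-2 mutein with substitutions at its contact with the common gamma chain. Both cytokines were made as fusions to mouse serum albumin. Each of the 5 Treg groups held 3 libraries (15 in all) and each of the 5 CD8+ groups held 1 (5 in all). Neither the labels nor the study's methods say how many mice each library pooled, and the p-values measure the spread between these libraries, which may be technical.

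SOCS proteins are inducible brakes on cytokine receptors. IL-2 joins its receptor chains, which activates JAK1 and JAK3 and then the transcription factor STAT5, and STAT5 switches on several SOCS genes, whose products bind the receptor or the kinases through an SH2 domain and recruit a ubiquitin ligase through the SOCS box. CIS (the product of Cish) and SOCS2 bind phosphorylated receptor tails, SOCS1 and SOCS3 also block JAK activity directly, and SOCS4 to SOCS7 are larger and less well understood proteins. In Tregs, which depend on IL-2, SOCS1 is known to be held down by miR-155.

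Reads summed over genes ranged from 20201392 to 63903764 in Tregs and from 38201667 to 45189835 in CD8+ cells. Cell type labels held: Foxp3 lay at 65.2 to 252 RPKM (reads scaled to transcript length and library size) in Tregs and at 0.482 to 0.999 in CD8+ cells, and Cd8a at 103 to 256 in CD8+ cells and 0.0879 to 1.84 in Tregs. Replicate 3 of each Treg group stood apart. Its summed RPKM over 8 erythroid markers was 194 to 341 against 7.90 to 31.01 in the other Treg libraries, and over 3 of 4 granulocyte markers it was 48.6 to 208 against 0.456 to 3.77. Macrophage markers (7 of 8 in the files) summed to 77.9 and 58.9 RPKM in unstimulated replicates 2 and 3, and to 7.92 to 42.6 in the other 13 Treg libraries. The part of these markers in the results was not tested.

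Sequences are shown first for the member called in the most Treg comparisons, Cish, because letters of the motif that STAT proteins are known to bind occur just after its transcription start. The motif searched was TTCNNNGAA, which reads the same on both strands. RefSeq promoter windows of GRCm38.p6, from 250 bases before to 50 bases after the transcription start, were given for 4 of the 8 members (Cish, Socs1, Socs3 and Socs4). In the window of Cish at chr9:107296409-107296708, plus strand, which covers the promoter and the start of the first exon, the motif (capitals) occurred 2 times, at bases 1 to 9 and 12 to 20 after the start:
Cish promoter: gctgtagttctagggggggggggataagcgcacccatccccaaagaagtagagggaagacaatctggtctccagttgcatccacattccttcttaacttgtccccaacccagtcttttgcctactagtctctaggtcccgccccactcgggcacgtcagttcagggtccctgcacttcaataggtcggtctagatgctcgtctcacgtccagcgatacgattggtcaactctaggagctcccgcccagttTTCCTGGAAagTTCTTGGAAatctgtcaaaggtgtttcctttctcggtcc
Of 32851 promoter windows of this length, 2726 (8.3%) held the motif at least 1 time and 150 (0.457%) held it 2 or more times. The Socs3 window held 1 match, TTCTTAGAA, at bases 154 to 146 before the start (chr11:117969512-117969520, minus strand). The start used for that window lies inside the Socs3 gene span (chr11:117966079-117970336, minus strand). The match is therefore before that start but within the gene span. The windows of Socs1 and Socs4 held 0 matches. A match is a string of letters and not a measured binding site, and STAT5 sites outside these windows were not searched.

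**Figure D1:**
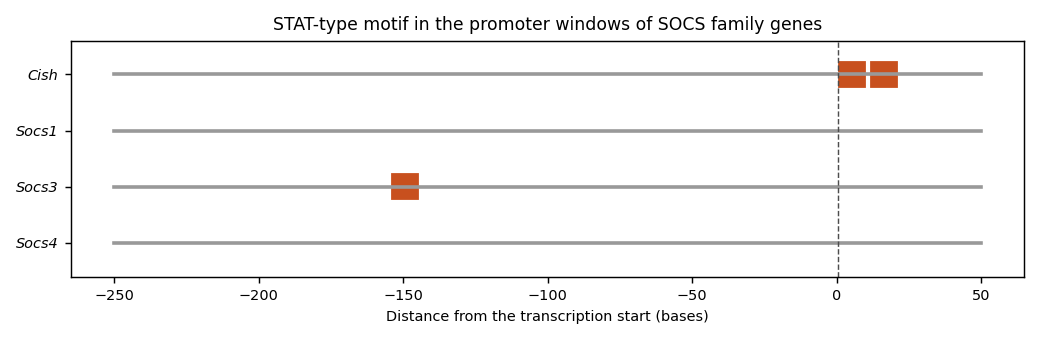
Position of the motif TTCNNNGAA (orange boxes) in the promoter windows of the 4 SOCS family genes with a RefSeq window, by distance in bases from the transcription start (dashed line). Cish holds 2 matches just after the start, and Socs1 and Socs4 hold 0. Socs3 holds 1 match before the start used for its window, which lies inside the Socs3 gene span.

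The second sequence shown is miR-155-5p with its target site in Socs1, the pair by which Socs1 is known to be restrained in Tregs. The RefSeq mature sequence (chr16:84714143-84714165, plus strand, GRCm38.p6) is printed with its seed, bases 2 to 8, in capitals, and the Socs1 stretch (chr16:10784206-10784228, minus strand, GRCm38) with the 7 bases that pair with the seed in capitals:
mmu-miR-155-5p: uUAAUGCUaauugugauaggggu
Socs1 site: ctgccgctgtgccgcAGCATTAa
The seed match lay at bases 20 to 26 of the GENCODE 3′ untranslated region of Socs1 and was the 1 such match in the family. The other 7 members held 0 matches, and 1742 of 21020 genes with an annotated 3′ untranslated region (8.29%) held at least 1. Reads on the short Mir155 precursor row, which are not a measure of the mature miRNA, were few. They numbered 3, 5 and 10 in unstimulated Tregs and 12, 54 and 25 under IL-2 at 90 min, and 1 and 12 in the corresponding CD8+ libraries. Mir155 was not called in any of the 9 Treg comparisons.

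In resting Tregs the family covered a wide range of levels, with Socs3 and Cish at the top and Socs6 at the bottom. Unstimulated Socs3 lay at 62.1 ± 17.1 RPKM and Cish at 58.1 ± 6.43 RPKM (mean ± SD, n = 3), and their ranges overlapped. Both were above Socs1 (17.0 ± 7.69), Socs2 (13.4 ± 6.09) and Socs4 (13.3 ± 2.41), whose neighbouring ranges overlapped. Below them were Socs5 (6.48 ± 1.33) and Socs7 (6.03 ± 0.604), which overlapped each other, and Socs6 (4.69 ± 0.434). RPKM is scaled to the length of the RefSeq transcript used, so the order of the members depends on that annotation. For Socs1 this length was 1339 bases, while its GENCODE 3′ untranslated region alone has 1993. In the unstimulated CD8+ library Socs3 was also highest at 34.01 RPKM, but Cish (1.87 RPKM) and Socs2 (0.557 RPKM) ranked 7 and 8 of 8 there.

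**Figure D2:**
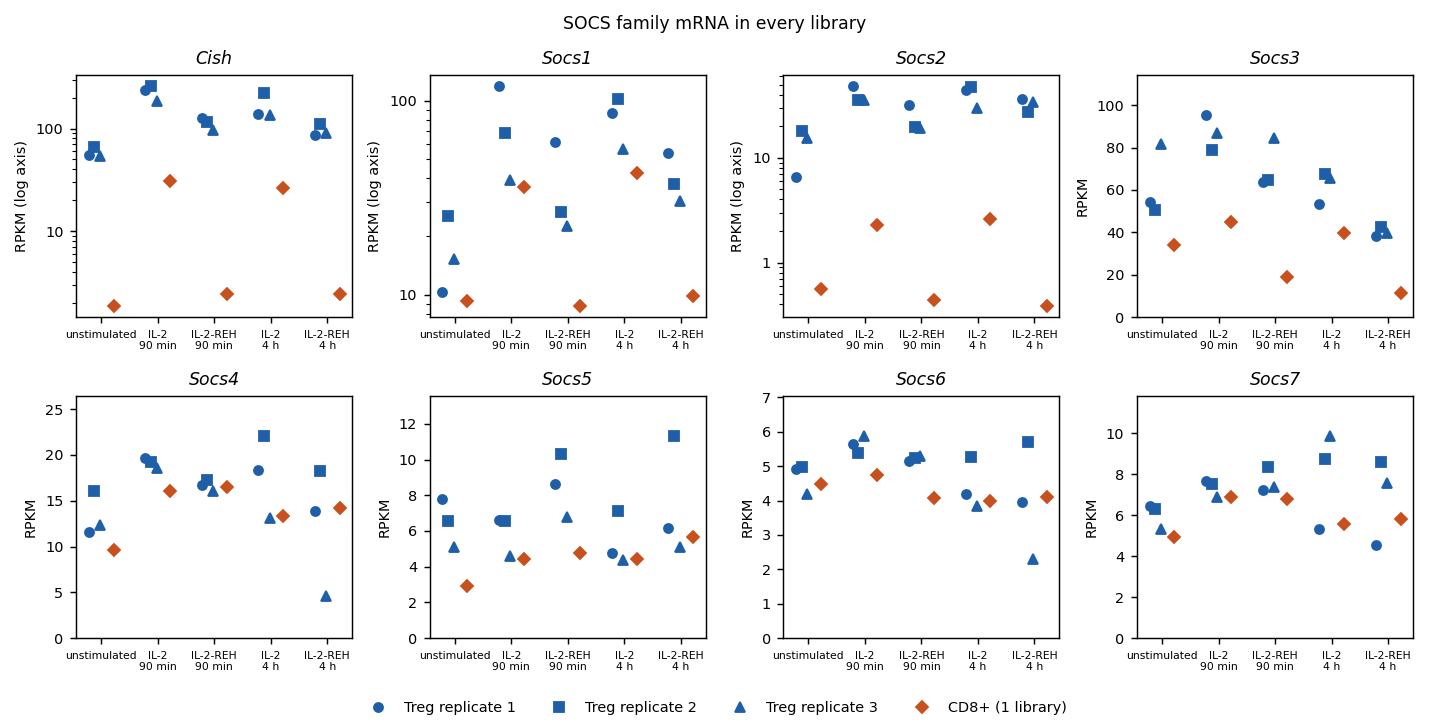
RPKM of the 8 SOCS family genes (1 panel each) in the 5 conditions; blue symbols are the 3 Treg libraries of each group by replicate number and orange diamonds the single CD8+ library. Axes are logarithmic for Cish, Socs1 and Socs2 and linear from 0 for the others. With IL-2 all Treg values of Cish, Socs1 and Socs2 were above the unstimulated ones at both times, and in CD8+ cells the 3 genes were higher with IL-2 than with IL-2-REH.

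In GRCm38.p6 (RefSeq) Cish lies at chr9:107296659-107302784 (plus strand), Socs1 at chr16:10783808-10785536 (minus strand), Socs2 at chr10:95383903-95417321 (minus strand) and Socs3 at chr11:117966079-117970336 (minus strand). The first question was which brakes were higher after IL-2 than in unstimulated Tregs. At 90 min Cish, Socs1 and Socs2 rose (edgeR quasi-likelihood test, Benjamini-Hochberg adjusted p under 0.05 over 15009 genes), which is 3 of 8 members beside 0.78% of all genes tested that were called higher. No member fell, and 0.0733% of all genes were called lower. All 8 members passed the filter on low counts. The median log2 fold change was 0.65 over the members and -0.06 over all genes tested.

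Cish, the first member of the family to be found and a target of STAT5, was at 54.7, 65.5 and 54.0 RPKM in replicates 1 to 3 of unstimulated Tregs and at 238, 262 and 187 RPKM after IL-2 for 90 min. Every stimulated library was above every unstimulated one, as were 7.14% of all genes tested. The log2 fold change was 2.12 ± 0.187 (SE), a 4.35-fold rise (adjusted p = 7.59e-05).

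Socs1, a direct inhibitor of JAK kinases, went from 10.3, 25.4 and 15.2 RPKM to 120, 67.9 and 39.1 RPKM. The groups did not overlap, but replicates differed widely: the ratio within same-numbered libraries ran from 2.57 in replicate 3 to 11.6 in replicate 1. In the fit the log2 fold change was 2.28 ± 0.384 (adjusted p = 0.0111). Without unstimulated replicate 3, a library that carried granulocyte and erythroid markers, the adjusted p was 0.0865 with a log2 fold change of 2.252. It was 0.054 without TMM scaling factors (log2 fold change 2.14) and 0.0833 in a fit of only the groups compared.

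Socs2, a regulator of growth hormone and cytokine receptors, went from 6.51, 18.1 and 15.5 RPKM to 48.9, 35.2 and 35.4 RPKM. Again unstimulated replicate 1 was the lowest library and its stimulated partner the highest. This was a log2 fold change of 1.74 ± 0.276 (adjusted p = 0.00762), and 1.46 without unstimulated replicate 1 (adjusted p = 0.00142). Leaving out that library also raised the number of calls over all genes, as given in the closing section.

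After 4 hr of IL-2 Cish, Socs1 and Socs2 were again called higher, beside 1.17% of all genes, and no member was called lower, beside 1.1%. The median log2 fold change of the members was 0.48, that of all genes -0.00166. Cish was at 138, 224 and 135 RPKM, a log2 fold change of 1.56 ± 0.184 (adjusted p = 0.000732). Socs1 was at 86.1, 102 and 56.3 RPKM, with a log2 fold change of 2.36 ± 0.385 (adjusted p = 0.00691). Socs2 was at 44.3, 47.2 and 30.2 RPKM, with a log2 fold change of 1.70 ± 0.275 (adjusted p = 0.00675). None of the 3 genes overlapped its unstimulated group, a pattern of 5.98% of all genes. Socs1 lost its call without unstimulated replicate 3 (log2 fold change 2.31, adjusted p = 0.0567).

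These calls rested on 3 libraries a group. In fits of only the groups compared, Cish kept its call at 90 min (adjusted p = 0.0155) and Socs2 did not (0.0934), and at 4 hr the adjusted p was 0.0796 for Cish, 0.0564 for Socs1 and 0.147 for Socs2. Without replicate 2 of every group no member was called in any comparison, with adjusted p of 0.0754 for Cish, 0.339 for Socs1 and 0.331 for Socs2 at 90 min and of 0.21, 0.247 and 0.253 at 4 hr. Without replicate 3 the corresponding values were 0.0557, 0.254 and 0.381 at 90 min and 0.0953, 0.179 and 0.207 at 4 hr, while the log2 fold changes of the 3 genes over all such omissions stayed between 1.32 and 2.59.

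After 90 min of IL-2-REH Cish was called in Tregs. Among the members 1 of 8 members was called higher, beside 0.0933% of all genes, and none was called lower, beside 0%. Cish was at 128, 117 and 97.0 RPKM, with a log2 fold change of 1.10 ± 0.182 over unstimulated Tregs (adjusted p = 0.0345). That call was lost without unstimulated replicate 2 (adjusted p = 0.212) or 3 (adjusted p = 0.327), without replicate 2 of every group (log2 fold change 1.06, adjusted p = 1.0) and without replicate 3 of every group (1.09, adjusted p = 1.0). It was also lost without TMM factors (adjusted p = 0.163), with limma (0.22), with only the groups compared (0.473) and without the filter on low counts (0.086).

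Socs1 was at 61.0, 26.8 and 22.6 RPKM under IL-2-REH at 90 min, of which replicate 3 lay below the highest unstimulated library. Its log2 fold change was 1.24 ± 0.372 (adjusted p = 0.389). Socs2 was at 32.1, 19.7 and 19.04 RPKM, above its unstimulated range (as were 5.72% of all genes), with a log2 fold change of 0.97 ± 0.271 (adjusted p = 0.38). In both genes replicate 1 gave the largest ratio to its unstimulated partner, 5.93 for Socs1 and 4.94 for Socs2, against 1.06 to 1.48 in the other libraries.

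After 4 hr of IL-2-REH none of the 8 members was called without the replicate block, beside 0.16% of all genes called higher and 0.153% called lower, and 4 of 8 members had an unadjusted p under 0.05, as did 13.3% of all genes. DESeq2 called 3 members there, beside 3.76% of all genes. Same-numbered Treg libraries deviated together, and with the replicate number as a block Cish, Socs1 and Socs2 were called higher, beside 1.01% of all genes called higher and 2.02% lower. Cish was at 85.9, 112 and 90.1 RPKM, a log2 fold change of 0.72 ± 0.180 (adjusted p = 0.118, and 0.0348 with the block). Socs1 was at 53.8, 37.4 and 30.5 RPKM, a log2 fold change of 1.31 ± 0.372 (adjusted p = 0.152, and 0.0426 with the block). Socs2 was at 36.3, 27.6 and 33.8 RPKM, a log2 fold change of 1.34 ± 0.273 (adjusted p = 0.0611, and 0.0259 with the block). For each of the 3 genes all stimulated libraries were above all unstimulated ones, as for 7.68% of all genes. Without unstimulated replicate 1 the call came out for Cish (adjusted p = 0.0387) and Socs2 (adjusted p = 0.014), with log2 fold changes of 0.76 and 1.05. In that fit far more of all genes were called than with all libraries, as given in the closing section.

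**Figure D3:**
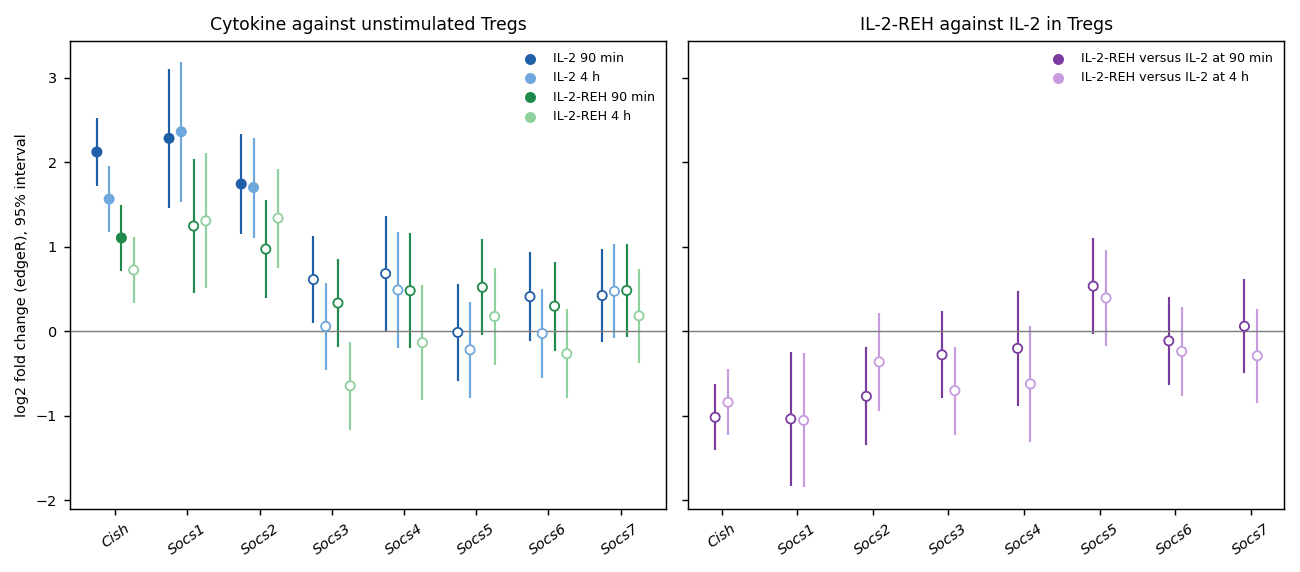
Log2 fold changes of the 8 SOCS family genes in Tregs from the edgeR fit without the replicate block, with 95% intervals; cytokine against unstimulated on the left and IL-2-REH against IL-2 on the right. Filled circles are called at an adjusted p under 0.05 (7 on the left, 0 on the right).

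Set directly against IL-2, IL-2-REH left the 3 inducible brakes lower in Tregs in most same-numbered pairs, but no member was called. At 90 min 0 of 8 members passed (edgeR), with 3 at an unadjusted p under 0.05 beside 0.993% of all genes, and 0.0133% of all genes were called, all lower. At 4 hr 0 of 8 passed, with 3 at an unadjusted p under 0.05 beside 3.72% of all genes, and 0.0267% of all genes were called, all lower. DESeq2 called Cish at 90 min (adjusted p = 1.001e-06) and at 4 hr (adjusted p = 0.000159) and no other member, beside 0.0999 and 0.393% of all genes.

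Cish under IL-2-REH was at 53.7, 44.6 and 51.8% of its RPKM under IL-2 in pairs 1 to 3 at 90 min, and at 62.2, 49.9 and 66.9% at 4 hr. It was lower in 3 of 3 pairs at each time and its groups did not overlap, a pattern of 3.04% of all genes at 90 min and 2.36% at 4 hr. The log2 fold change was -1.02 (95% interval -1.41 to -0.63, adjusted p = 0.165) at 90 min and -0.84 (-1.23 to -0.45, adjusted p = 0.23) at 4 hr. With the replicate block the adjusted p of Cish was 0.0911 and 0.113.

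Socs1 under IL-2-REH was at 51.0, 39.5 and 57.6% of its level under IL-2 at 90 min and at 62.5, 36.7 and 54.1% at 4 hr. The groups overlapped at 90 min and did not at 4 hr. The fitted log2 fold change was -1.04 (95% interval -1.83 to -0.24) at 90 min and -1.05 (-1.85 to -0.26) at 4 hr, with adjusted p of 1.0 each. With the replicate block the adjusted p of Socs1 was 0.9999 at 90 min and 0.317 at 4 hr. Socs2 was at 65.7, 55.8 and 53.8% at 90 min and at 82.0, 58.4 and 112% at 4 hr, so the later pairs pointed both ways. The log2 fold change was -0.77 (-1.35 to -0.19, adjusted p = 1.0) and then -0.36 (-0.94 to 0.21, adjusted p = 1.0).

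Between times no member was called in Tregs. Cish was lower at 4 hr than at 90 min of IL-2 in 3 of 3 pairs, at 58.1 to 85.5% of the earlier level, with a log2 fold change of -0.56 ± 0.180 (adjusted p = 0.21, and 0.0393 by DESeq2). For Socs1 and Socs2 the log2 fold changes from 90 min to 4 hr of IL-2 were 0.08 (95% interval -0.71 to 0.86) and -0.04 (-0.62 to 0.53). edgeR called 0 of 8 members and 0% of all genes between times under either cytokine, with 2 members each at an unadjusted p under 0.05, a share near that of all genes there (17% under IL-2 and 14.6% under IL-2-REH). DESeq2 called 1 member under each cytokine, Cish under IL-2 (beside 2.49% of all genes) and Socs3 under IL-2-REH (beside 1.71%). The interaction of cytokine and time called 0 of 8 members by edgeR and 0 by DESeq2, with 0 members and 47 of all genes at an unadjusted p under 0.05 and 0% of all genes called.

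Socs3, which restrains receptors of the interleukin 6 family above all, was called in no Treg comparison by edgeR. In unstimulated Tregs it was at 54.2, 50.4 and 81.7 RPKM, and it was at 95.4, 78.8 and 86.9 RPKM after IL-2 for 90 min, with overlapping groups. The log2 fold change was 0.61 ± 0.242 (adjusted p = 0.286). At 4 hr of IL-2 it was at 53.4, 67.5 and 65.5 RPKM, a log2 fold change of 0.06 ± 0.241 (adjusted p = 0.924) that turned to -0.12 without replicate 2.

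Under IL-2-REH Socs3 was at 63.7, 64.5 and 84.4 RPKM at 90 min and at 38.2, 42.4 and 39.7 RPKM at 4 hr. The 4 hr libraries were below every library of the other 4 Treg groups. Against unstimulated Tregs the log2 fold change at 4 hr was -0.65 (95% interval -1.16 to -0.13, adjusted p = 0.252), and a fall without overlap was seen in 6.05% of all genes. Against 90 min of IL-2-REH it was -0.98 (adjusted p = 0.248, and 0.0166 by DESeq2), and 6.91% of all genes were lower without overlap. Against IL-2 at 4 hr it was -0.70 (-1.22 to -0.18, adjusted p = 1.0, and 0.317 with the block), lower in 3 of 3 pairs at 60.6 to 71.6%. In unstimulated Tregs and at 90 min of IL-2-REH the highest Socs3 value belonged to replicate 3, in which granulocyte markers summed to 146 and 136 RPKM. Their part in it was not tested.

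Socs4 to Socs7 were called in none of the 9 Treg comparisons. Socs4 is linked to receptor tyrosine kinases. It was at 11.6 to 16.1 RPKM in unstimulated Tregs and at 18.6 to 19.6 RPKM after IL-2 for 90 min. All stimulated libraries were above all unstimulated ones, as for 7.14% of all genes. The log2 fold change of Socs4 was 0.68 (95% interval -0.00227 to 1.37, adjusted p = 0.364). The lowest Socs4 value, 4.64 RPKM, was replicate 3 of IL-2-REH at 4 hr, the library with the highest granulocyte sum (208 RPKM), where Socs6 was also at its lowest, 2.29 RPKM. Beside these, replicates 1 and 2 had 13.9 and 18.3 RPKM of Socs4 and 3.95 and 5.69 RPKM of Socs6.

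Socs5, described as a brake on interleukin 4 and growth factor signals, was at 6.61, 6.58 and 4.61 RPKM under IL-2 and at 8.62, 10.3 and 6.76 RPKM under IL-2-REH at 90 min, higher in 3 of 3 pairs (130 to 156% of IL-2), and higher in 3 of 3 pairs at 4 hr (116 to 159.1%). The log2 fold changes were 0.53 (95% interval -0.04 to 1.10, adjusted p = 1.0) and 0.39 (-0.18 to 0.96, adjusted p = 1.0). A higher level without overlap at 90 min was found in 2.42% of all genes. Socs6, which targets KIT and other kinases, stayed between 2.29 and 5.87 RPKM over the 15 Treg libraries. Like Socs4 and Socs7, it was above its unstimulated range at 90 min of IL-2 (7.14% of all genes) and of IL-2-REH (5.72%). Socs4 and Socs6 were also lower without overlap under IL-2-REH than under IL-2 at 90 min (3.04% of all genes). Socs7, an adaptor that binds signaling proteins through its SH2 domain, lay between 4.52 and 9.87 RPKM. Without replicate 1 of every group Socs7 was called higher under IL-2 at 90 min (log2 fold change 0.62, adjusted p = 0.041) and 4 hr (0.82, adjusted p = 0.0177) and under IL-2-REH at 90 min (0.72, adjusted p = 0.0248). In that fit 9.08, 6.77 and 8.73% of all genes were called higher. With all libraries these log2 fold changes were 0.42, 0.47 and 0.48, with adjusted p of 0.494, 0.361 and 0.486. The Socs2 gene overlaps Gm33230 and the Socs5 gene overlaps Gm30510, and whether the counting used strand is not given in the sources used here, so reads of these pairs cannot be told apart.

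In CD8+ T cells, with 1 library a group and no test, Cish, Socs1 and Socs2 were higher under IL-2 than without it. Ratios of reads are given with a 95% exact (Clopper-Pearson) interval that covers counting error only. Cish stood at 1.87 RPKM (248 reads) before stimulation, 30.6 RPKM (4598 reads) after 90 min of IL-2 and 26.1 RPKM (3820 reads) after 4 hr, ratios of 16.4 (14.4 to 18.7) and 14.0 (12.3 to 15.9). The log2 ratio of RPKM + 1 was 3.46 at 90 min and 3.24 at 4 hr. Socs1 stood at 9.25 RPKM before, 36.2 RPKM at 90 min and 42.3 RPKM at 4 hr, ratios of 3.91 (3.61 to 4.23) and 4.57 (4.23 to 4.95). Socs2 stood at 0.557, 2.30 and 2.61 RPKM (76, 355 and 393 reads), ratios of 4.13 (3.21 to 5.36) and 4.69 (3.66 to 6.08). At a log2 ratio of RPKM + 1 above 2, Cish passed at 90 min (1 of 8 members, beside 0.22% of 10021 genes) and Cish and Socs1 passed at 4 hr (2 of 8, beside 0.16%). The scale of RPKM + 1 understates low genes, and Socs2 was at 1.08 and 1.21 on it.

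Under IL-2-REH the same genes were nearer to their unstimulated CD8+ level than under IL-2. Cish was at 2.47 RPKM at 90 min and 2.45 RPKM at 4 hr, 1.32 (1.12 to 1.56) and 1.31 (1.11 to 1.54) times the unstimulated value. Socs1 was at 8.76 and 9.81 RPKM, ratios of 0.946 (0.854 to 1.05) and 1.06 (0.963 to 1.17). Socs2 was at 0.441 and 0.385 RPKM, ratios of 0.792 (0.556 to 1.12) and 0.692 (0.487 to 0.981). None of the 8 members was past the fold at either time, beside 0.559% of genes in either direction at 90 min and 0.599% at 4 hr.

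As a share of the level under IL-2, Cish under IL-2-REH was 8.06% (7.19 to 9.01) at 90 min and 9.38% (8.42 to 10.4) at 4 hr in CD8+ cells, against 44.6 to 53.7% and 49.9 to 66.9% in the Treg pairs. Socs1 was at 24.2% (22.3 to 26.2) and 23.2% (21.6 to 24.9), against 39.5 to 57.6% and 36.7 to 62.5%. Socs2 was at 19.2% (14.4 to 25.2) and 14.8% (11.1 to 19.3), against 53.8 to 65.7% and 58.4 to 112%. Each CD8+ share was below all 3 Treg pairs, but with 1 CD8+ library a group the difference between cell types was not tested. No share of all genes with this pattern is given, so it is not read as particular to these genes. At a log2 ratio under -2 Cish passed at 90 min (1 of 8, beside 0.0699% of genes lower) and Cish and Socs1 passed at 4 hr (2 of 8, beside 0.289%), Socs1 at -2.002.

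**Figure D4:**
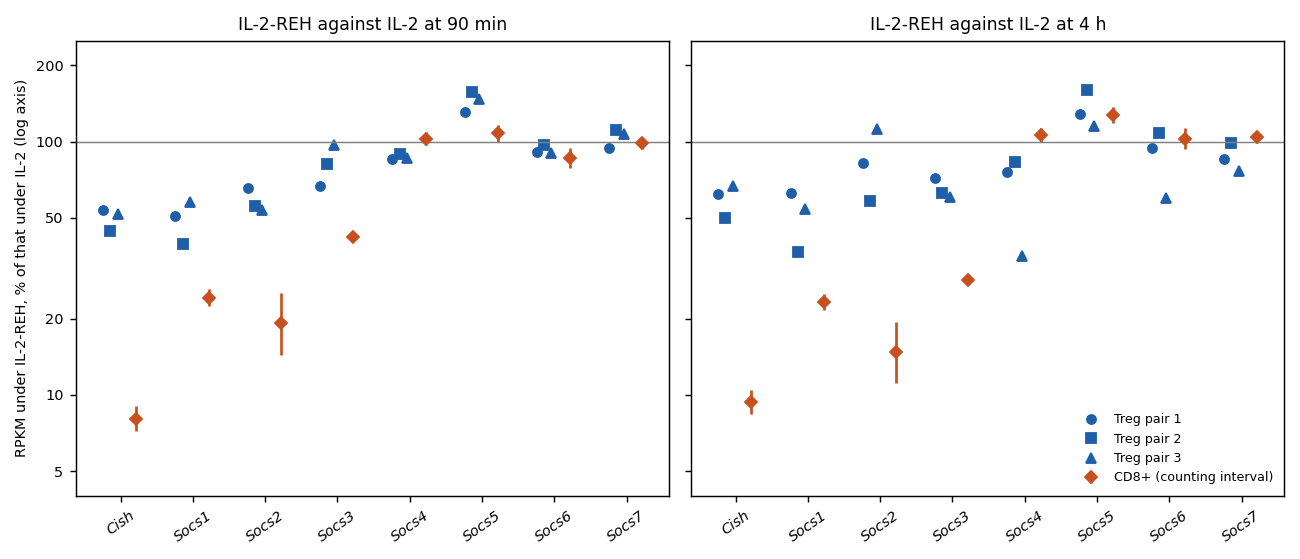
RPKM under IL-2-REH as a percentage of RPKM under IL-2 (log axis; the grey line marks equal levels) at 90 min and 4 hr for each SOCS family gene. Blue symbols are same-numbered Treg pairs and orange diamonds the CD8+ pair with its 95% counting interval. For Cish, Socs1, Socs2 and Socs3 the CD8+ pair was below all Treg pairs at both times. No share of all genes is given for this pattern.

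Socs3 also differed by cytokine in the CD8+ libraries. It stood at 34.01 RPKM (5691 reads) unstimulated, 44.7 and 39.8 RPKM under IL-2 at 90 min and 4 hr, and 18.8 and 11.3 RPKM under IL-2-REH. Against unstimulated cells IL-2-REH gave ratios of 0.554 (0.530 to 0.579) and 0.333 (0.317 to 0.350), and against IL-2 shares of 42.1% (40.4 to 43.9) and 28.5% (27.2 to 29.9). The log2 ratio of RPKM + 1 was -0.82 and -1.50 against unstimulated cells, inside the fold of 2. Socs4, Socs5 and Socs7 were above the unstimulated library in all 4 stimulated CD8+ libraries under either cytokine (Socs4 1.39 to 1.71 times, Socs5 1.51 to 1.93 times, Socs7 1.13 to 1.39 times). Their IL-2-REH to IL-2 shares lay between 98.2 and 127%, while Socs6 stayed between 0.889 and 1.05 times its unstimulated level. The 4 stimulated libraries were set against the same unstimulated library, and no share of all genes higher in all 4 is given.

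Across cell types, the CD8+ libraries had less Cish, Socs1, Socs2 and Socs3 mRNA than every Treg library of the same condition. Unstimulated, 7 of 8 members were below all 3 Treg libraries, beside 35.4% of 10457 genes, and Socs6 was within the range. The counts were 7 of 8 under IL-2 at 90 min (beside 32.7%), 7 of 8 under IL-2-REH at 90 min (39.7%), 4 of 8 under IL-2 at 4 hr (33.6%) and 4 of 8 under IL-2-REH at 4 hr (40.5%). Without Treg replicate 3, 7 of 8 members were outside the Treg range under IL-2 at 4 hr. A range of fewer libraries is narrower, and the share of all genes outside it is not given. No CD8+ value of a member was above the Treg range in any condition, beside 20.5, 29.8, 24.4, 22.8 and 23.6% of genes in the same order of conditions as the 5 counts. The mean Treg level of Cish was 31.1 times the CD8+ level unstimulated, 7.48 and 6.35 times under IL-2 at 90 min and 4 hr, and 46.1 and 39.2 times under IL-2-REH. For Socs2 the ratios were 24.0 unstimulated, 17.3 and 15.5 under IL-2, and 53.5 and 84.5 under IL-2-REH. For Socs1 they were 1.83, 2.09 and 1.93, and 4.20 and 4.13. Socs4 to Socs7 had mean ratios between 0.862 and 2.22. In bulk RNA, fewer cells with a transcript and less of it per cell cannot be told apart.

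Genes of the ligase that the SOCS box recruits were expressed in both cell types. Of 11 listed partners 9 were in the files (the elongin genes as Tceb1 and Tceb2) and all 9 were tested. None was called in any of the 9 Treg comparisons and none passed the fold in the 8 CD8+ comparisons, with median log2 fold changes of -0.33 to 0.25 in Tregs. The cullin scaffold gene Cul5 lay at 3.40 to 7.70 RPKM in Tregs and 4.99 to 6.66 in CD8+ cells, and the elongin gene Tceb2 at 55.6 to 128 and 49.0 to 70.6. Of 26 other SOCS box genes (the Asb, Spsb, Wsb and Rab40 genes) 14 were tested in Tregs and none was called without the block. With the block Asb2 was called lower under IL-2-REH at 4 hr (adjusted p = 0.0418), beside 2.02% of all genes. In CD8+ cells 11 were expressed, and only Spsb1, which targets inducible nitric oxide synthase, passed the fold. It went from 1.22 RPKM unstimulated to 12.2 under IL-2 and 9.96 under IL-2-REH at 90 min, and was back at 1.60 and 1.25 RPKM at 4 hr. At 90 min 0.22% of genes were past the fold higher under IL-2, and 0.559% in either direction under IL-2-REH.

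Of 12 IL-2 receptor and JAK-STAT genes, 1 was called in 1 Treg comparison: Il2ra, the high-affinity IL-2 receptor chain, rose from 90.5 ± 27.4 to 193 ± 90.3 RPKM (n = 3) under IL-2 at 4 hr (log2 fold change 1.15, adjusted p = 0.0407). Of all genes 1.17% were called higher there. With the replicate block Jak3 and Il2rg, the kinase and receptor chain that IL-2 shares with related cytokines, were called lower at 4 hr of IL-2 (adjusted p = 0.0061 and 0.0467), and Jak3 also at 4 hr of IL-2-REH (adjusted p = 0.00158). The block called 4.06 and 2.02% of all genes lower in these comparisons. None of the 12 genes passed the fold in CD8+ cells, where Il2ra lay at 1.59 to 6.34 RPKM against 62.7 to 282 in Tregs.

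Among 17 other brakes on JAK-STAT and related signals, none was called higher in any Treg comparison. Dusp1, a phosphatase of MAP kinases, fell from 250 ± 56.5 RPKM unstimulated to 75.0 ± 13.4 under IL-2 at 90 min (log2 fold change -1.60, adjusted p = 0.0447), to 45.2 ± 23.3 at 4 hr (-2.45, adjusted p = 0.00337) and to 57.6 ± 26.9 under IL-2-REH at 4 hr (-2.15, adjusted p = 0.024). Of all genes 0.0733, 1.1 and 0.153% were called lower in these comparisons. In CD8+ cells Dusp1 went from 57.4 RPKM to 5.99 and 2.53 under IL-2 and 6.89 and 3.95 under IL-2-REH. In Tregs Dusp6 was called lower at 4 hr only with the block (adjusted p = 0.00558 under IL-2 and 0.0149 under IL-2-REH). The related phosphatase genes Dusp6 (9.21 RPKM unstimulated, 1.52 and 1.49 at 90 min of IL-2 and IL-2-REH) and Dusp5 (32.3 RPKM unstimulated, 3.87 at 4 hr of IL-2-REH) also passed the fold in CD8+ cells. Under IL-2-REH 0.559% of genes at 90 min and 0.599% at 4 hr were past the fold in either direction. For IL-2 no share of genes past the fold lower is given.

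Of 24 other STAT5 target genes of T cells, 2 rose under IL-2 at 90 min, beside 0.78% of all genes, and 3 rose and 1 fell at 4 hr, beside 1.17 and 1.1%. None was called under IL-2-REH without the block. With the block Tnfrsf18 was called higher and Ifng and Prf1 lower at 4 hr of IL-2-REH (adjusted p = 0.0473, 0.0356 and 0.0418), beside 1.01% of all genes higher and 2.02% lower. Under IL-2 with the block 5 targets were called higher at 90 min, beside 1.37% of all genes, and 8 higher and 2 lower at 4 hr, beside 2.85 and 4.06%. Among these were Tnfrsf18, higher at both times (adjusted p = 0.0186 and 0.00738), and Ifng, lower at 4 hr (adjusted p = 0.0269). Without the block the 2 at 90 min were Foxp3, the factor that defines Tregs (75.0 ± 15.4 to 174 ± 67.8 RPKM, log2 fold change 1.33, adjusted p = 0.0217), and the kinase gene Pim2 (1.78, adjusted p = 0.0426). At 4 hr they were Foxp3, Il2ra (a member of both lists) and the cell cycle kinase gene Cdk6 (1.16, adjusted p = 0.029), while Il7r, the IL-7 receptor, fell by 1.37 (adjusted p = 0.0232). The median log2 fold change of the 24 genes was 0.78 and 0.72 under IL-2 at 90 min and 4 hr, and 0.41 and 0.25 under IL-2-REH, beside -0.06, -0.00166, -0.05 and 0.01 over all genes tested. In CD8+ cells 7 of 22 expressed targets were past the fold lower under IL-2-REH than under IL-2 at 4 hr, beside 0.289% of genes, led by Gzmb, Lta, Cdk6 and Bcl2 with log2 ratios of -3.45, -3.05, -2.92 and -2.79.

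The genes with the pattern most like that of a member were named by Pearson correlation of log2(RPKM + 1) across the 15 Treg libraries, among 10472 genes, as a description. They were Gpsm2 (r = 0.97), Ube2h (0.97) and Rnf19b (0.95) for Cish, and Gpr146, Mir6974 and Metrnl (0.95 each) for Socs1. For Socs2 they were Gpr83 (0.95), Myo6 (0.94) and Lta (0.93), and for Socs3 they were Gucy1b3 (0.87), Frmd4b (0.81) and Uxs1 (0.80). Over all 20 libraries, which fall into 2 cell types, Socs2 came next for Cish after Ikzf4 and Tnfrsf18, and Il2ra came next for Socs2 after Gpr83. For Socs1 the closest were Mov10, Wdr82 and Gpr146, and for Socs3 they were Rgs1, Csrnp1 and Gucy1b3. The libraries share depth and replicate number, and nothing follows from the ranking about shared control.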

How the data were processed

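RNA-seq (50 bp single-end reads, Kapa mRNA HyperPrep) was analysed from 20 libraries. The submitters' notes name build mm10, TopHat2 2.1.1, Bowtie2 2.2.6, SAMtools 0.1.8, bedtools 2.25.0 and edgeR. The authors deposited read counts per RefSeq transcript, not normalized, and RPKM of the same reads, scaled to exon length and mapped reads. For each of 23992 symbols the transcript with the most reads was used (31682 transcripts, Socs1 and Socs2 have several).

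Read counts of the 15 Treg libraries were fitted with edgeR 4.0.16 in R 4.3.3 (filterByExpr, TMM, quasi-likelihood test, 1 mean per group), with Benjamini-Hochberg adjustment over 15009 genes and calls at 0.05. DESeq2 1.42.0 and limma 3.58.1 on log2(RPKM + 1), the replicate block, other filters and left-out libraries were alternatives. The fits were also run on simulated counts of independent libraries without a replicate effect. That run does not cover the shared deviations of same-numbered libraries. CD8+ ratios used log2(RPKM + 1), a threshold of 2 and genes at a mean of 1 RPKM or more, with 95% intervals for counting error only; differences on this scale are understated for low genes. CD8+ values were set against the range of the Treg libraries over genes at a mean of 1 RPKM or more in the 20 libraries.

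All 30 same-number pairs of Treg libraries deviated together (correlation of deviations from group means 0.121 to 0.839, mean 0.538). The mean for different numbers was -0.257, but centering each group on its own mean ties that value to the same-number one. It is not separate evidence. The labels and the study's methods state no pairing, so the replicate block was kept as an alternative. Libraries were grouped by the labels. Named genes were all 8 members and, from each of 6 lists, at most 4 called genes with the smallest adjusted p (CD8+: 4 past the fold); likeness was ranked over the top 3 genes. Genes called only with the block were named after their values were seen. Members and lists were chosen with earlier results of these data known. The miR-155 search was added after seeing the data. Gene coordinates are RefSeq GRCm38.p6, and 3′ untranslated regions GENCODE vM21. No library pair held identical values (0 pairs). Promoters were matched by symbol (4 of 8 members).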

Additional observations from a re-analysis of the deposited data

Results flagged for a closer look

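In 8 cases all 3 same-numbered Treg pairs moved one way and the single CD8+ pair the other; the difference between cell types was not tested, and most of these values were small. These were 16.7% of the 48 cases (8 members in 6 comparisons), beside 8.61% over all genes with a mean of 1 RPKM or more. All are log2 ratios of RPKM + 1. Under IL-2-REH at 90 min against unstimulated cells, where 4 of 8 members and 5.3% of genes showed this, Socs1 was at 2.46, 0.08 and 0.54 in Treg pairs 1 to 3 and at -0.0715 in CD8+ cells. Socs2 was at 2.14, 0.11 and 0.28 against -0.11. Socs3 was at 0.23, 0.35 and 0.05 against -0.82. Socs6 was at 0.06, 0.06 and 0.28 against -0.11. Under IL-2-REH at 4 hr (8.66% of genes) Socs2 was at 2.31, 0.58 and 1.08 against -0.17.

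Between IL-2-REH and IL-2, where 15.4% of genes at 90 min and 11.6% at 4 hr showed this, Socs4 was lower in the 3 Treg pairs at 90 min (-0.22, -0.15 and -0.20) and at 0.0369 in CD8+ cells, and at 4 hr it was at -0.38, -0.26 and -1.32 against 0.0819. Socs7 at 4 hr was at -0.19, -0.02 and -0.34 against 0.0494.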

How the results depend on the processing

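With all libraries and without the block, 3, 3, 1 and 0 of the 8 members were called against unstimulated Tregs (IL-2 at 90 min and 4 hr, IL-2-REH at 90 min and 4 hr) and 0 in the other 5 Treg comparisons. Fitting only the groups compared gave 1, 0 and 0 in the first 3, where fewer samples set the spread. IL-2 at 90 min gave 2 without TMM factors, where Socs1 was at an adjusted p of 0.054. IL-2-REH at 90 min gave 0 with limma, without TMM factors and without the filter on low counts. IL-2-REH at 4 hr gave 3 with the replicate block and 3 with DESeq2, and the block changed no other member's call. DESeq2 gave 1 each for IL-2-REH against IL-2 at both times and for 4 hr against 90 min under each cytokine. Leaving out libraries gave 0 to 4, 0 to 4, 0 to 2 and 0 to 2 members against unstimulated Tregs and 0 elsewhere. The cause of these changes was not tested. In CD8+ cells a threshold of 1 gave 3 members under IL-2 at 90 min (1 at the threshold of 2), 1 under IL-2-REH at 4 hr (0) and 4 for IL-2-REH against IL-2 at each time (1 and 2), and a pseudocount of 0.1 gave 3 at 90 min. Under IL-2 at 4 hr Socs2 was also past the threshold of 1. Shares of all genes at these looser cuts are not given, so the counts are not read as a result about the members. Leaving out a Treg library gave 7 to 8 members outside the Treg range unstimulated and at 90 min under either cytokine, 4 to 7 under IL-2 at 4 hr (7 without replicate 3) and 5 to 6 under IL-2-REH at 4 hr. Leaving out a library narrows the range for every gene, and shares of all genes are not given for these counts.

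Counts over all genes moved more. In the order IL-2 at 90 min and 4 hr, IL-2-REH at 90 min and 4 hr 128, 341, 14 and 47 genes were called. The block gave 275, 1038, 32 and 455, DESeq2 gave 553, 1016, 110 and 565, and a fit of only the groups compared gave 31, 15, 0 and 1. limma gave 0 and 25 under IL-2-REH, and 2 genes were called at 90 min without TMM factors. Omissions gave 0 to 2509, 3 to 1937, 0 to 2269 and 0 to 1545; without unstimulated replicate 1 alone they were 1997, 1374, 1874 and 1073. IL-2-REH against IL-2 called 2 and 4 genes, 15 and 59 with DESeq2, 10 at 4 hr with the block, 0 with limma, without TMM factors or with only the groups compared, and 0 to 5 and 0 to 11 with omissions. Between times 0 were called under either cytokine, while the block gave 58 and 6, DESeq2 gave 374 and 257, and omissions gave 0 to 625 and 0 to 574; under IL-2 limma and no filter gave 3 each and no TMM factors gave 5. Without TMM factors the median log2 fold change of all genes was -0.21 for each cytokine at 90 min, against -0.06 and -0.05 with them.

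No called change turned sign in any alternative, and 30 values of members that were not called did. Against unstimulated Tregs at 4 hr of IL-2, Socs6 was 0.00424 without TMM factors. From 90 min to 4 hr of IL-2, Socs2 was 0.0166 with limma, 0.14 without TMM factors and 0.0165 with only the groups compared, and Socs4 was 0.00516 without TMM factors. In the interaction Socs1 was 0.0279 with limma and 0.0378 without TMM factors. Leaving out libraries gave -0.21 to 0.25 for Socs5 under IL-2 at 90 min, and at 4 hr -0.15 to 0.32 for Socs3, -0.45 to 0.10 for Socs5 and -0.13 to 0.11 for Socs6. Under IL-2-REH at 4 hr it gave -0.42 to 0.21 for Socs4, -0.26 to 0.54 for Socs5 and -0.00779 to 0.55 for Socs7. From 90 min to 4 hr of IL-2 it gave -0.0515 to 0.37 for Socs1, -0.14 to 0.13 for Socs2, -0.31 to 0.0446 for Socs4 and -0.23 to 0.20 for Socs7, and in the interaction -0.18 to 0.0569 for Socs1 and -0.32 to 0.0424 for Socs6.

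CD8+ groups had 1 library each, so the intervals there hold counting error only, and Socs2 rested on 61 to 393 reads a library.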
